A study of Mus musculus with 6 samples.

Results

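The actin cytoskeleton genes described here are 50 genes chosen by name: cytoplasmic actins, the Arp2/3 complex, capping, severing and monomer-binding proteins, coronins, assembly factors and adaptors, crosslinkers and scaffolds, myosins, membrane and adhesion linkers, and kinases. All 50 were found among the 16383 genes of the table used here, which ends at Pcsk5 in alphabetical order. Genes of these roles with later names are therefore not included, and sums by role cover only the 50 genes. The 50 genes were read in mature CD8 thymocytes of the mouse, sorted as TCRbeta high, CD69-, CD24- and CD8+. The 3 genotypes were wild type (WT), Tcf1-/- (Tcf1 KO) and Tcf1-/-Lef1-/- (DKO), with 2 libraries each. Tcf1 and Lef1 are related transcription factors of the T cell lineage that bind the same DNA motif. The design text gives CD4-Cre, a recombinase switched on in developing thymocytes, as the means of deletion. It names the control mice only as controls, and ages and the number of mice behind a library are not given. The values are FPKM, fragment numbers scaled for transcript length and for the size of the library, which can be compared between genes. The labels do not tie the libraries to separate animals, so p-values measure the spread between these libraries, which may be technical.

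Actin exists as monomers that assemble into filaments. The Arp2/3 complex starts branched filaments, formins and Ena/VASP proteins extend unbranched ones, capping and severing proteins stop or cut them, crosslinkers bundle them, and myosins pull on them. In T cells this machinery shapes the cell cortex, drives crawling through the thymus and builds the contact formed with an antigen-presenting cell.

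The sorted cells carried the RNA of their label: Cd8a lay between 516 and 656 FPKM and Cd3e between 584 and 795 FPKM over the 6 libraries. Cd4 RNA, however, was at 1.41 and 0.65 (WT), 15.1 and 6.27 (Tcf1 KO) and 129 and 63.7 FPKM (DKO). Lef1 was at 316 and 282 (WT), 309 and 312 (Tcf1 KO) and 131 and 130 FPKM (DKO), so its RNA was lower but present in the double mutant. The gene for Tcf1, Tcf7, was not analysed here, as the table used here ends at Pcsk5 in alphabetical order. Defining markers of B cells (Ms4a1, at most 0.01 FPKM), macrophages (Csf1r, at most 0.07 FPKM) and smooth muscle (Acta2, at most 0.12 FPKM) were near 0. Of 15 markers of stroma, muscle and endothelium, 13 were under 1 FPKM in all 6 libraries and 4 were at 0, and their summed level ranged over 2.20 to 2.40 (WT), 2.30 to 2.91 (Tcf1 KO) and 3.92 to 4.60 FPKM (DKO). The summed levels were 21.1 to 21.7 (WT), 16.6 to 18.4 (Tcf1 KO) and 24.5 to 27.7 FPKM (DKO) for 12 B cell markers, 8 of them under 1 FPKM in all 6 libraries. For 14 myeloid markers, 10 of them under 1 FPKM, they were 11.7 to 14.2, 14.2 to 16.1 and 7.74 to 10.1 FPKM, and for 11 erythroid and platelet markers, 9 of them under 1 FPKM, 11.2 to 11.4, 6.97 to 7.13 and 18.2 to 19.7 FPKM. The part of such cells in the results was not tested. The table holds no counts; an estimate from the spacing of low values put the libraries between 52250000 and 66750000 fragments, which makes 1 FPKM on a transcript of 2 kb worth 94.1 to 120.2 fragments.

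Promoter sequence was looked at first, because Tcf1 and Lef1 bind a CTTTG core and because actin genes are classical targets of serum response factor, which binds the CArG box. RefSeq promoters (build GRCm38.p6, 250 bases before to 50 bases after the start) were at hand for 44 of the 50 genes, with 54 promoters in all. The genes without an entry were Actb, Coro1b, Cotl1, Cttn, Marcks and Pak2. On either strand, CTTTGAA or CTTTGAT was found in 1 of the 54 promoters (1.85%), that of Lcp1, where it begins 12 bases after the start, against 8.65% of all 32851 promoters. The shorter core CTTTG, contained in both and searched after the first result was seen, was found in 18 of 54 (33.3%) against 53.9% of all. The CArG box was found in 3 of 54 (5.56%), those of Actg1, Arpc4 and Myl6, against 1.63% of all. Member promoters had a median of 63.5% G and C, against 52.7% over the table. A match here is a run of letters in a window and not a binding site.

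The CArG box windows of Actg1 and Myl6 are shown because they lie upstream of the start and overlap no annotated exon. That of Arpc4 did not meet this rule. Actg1, Myl6 and Arpc4 were all lower in DKO than in WT, as were 40.8% of tested members and 27.8% of all tested genes. Actb, which had no promoter entry, was higher in DKO. A link between the box and these changes was not tested. The windows of Actg1 and Myl6 lie on the minus strand at chr11:120348551-120348610 and chr10:128493025-128493084 in GRCm38.p6, with the box in capitals.
Actg1: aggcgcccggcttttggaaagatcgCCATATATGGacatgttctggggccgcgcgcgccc
Myl6: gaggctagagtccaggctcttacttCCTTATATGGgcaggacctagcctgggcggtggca

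The sequence upstream of the members with the largest changes in DKO is shown next, read from the same table and kept to bases that lie in no annotated exon. Actn1, the largest fall, is at chr12:80260558-80260613 on the minus strand. Iqgap2 is at chr13:95891923-95892172 on the minus strand. Myo1f is at chr17:33555457-33555706 on the plus strand, and capitals mark its CTTTG core, which begins 119 bases before the start. Neither of the longer cores nor a CArG box was found in these promoters.
Actn1: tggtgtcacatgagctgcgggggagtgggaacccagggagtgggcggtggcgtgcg
Iqgap2: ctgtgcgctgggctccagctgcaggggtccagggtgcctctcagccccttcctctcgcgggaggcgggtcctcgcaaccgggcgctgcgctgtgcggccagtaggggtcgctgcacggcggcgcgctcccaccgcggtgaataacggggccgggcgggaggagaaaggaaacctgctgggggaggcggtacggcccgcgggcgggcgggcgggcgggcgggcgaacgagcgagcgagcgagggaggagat
Myo1f: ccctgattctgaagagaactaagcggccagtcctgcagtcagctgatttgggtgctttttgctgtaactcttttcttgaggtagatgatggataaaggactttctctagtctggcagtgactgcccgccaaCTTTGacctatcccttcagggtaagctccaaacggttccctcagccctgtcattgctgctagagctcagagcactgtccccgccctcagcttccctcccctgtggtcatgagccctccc

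The members were among the most abundant RNAs of the listed genes, which end at Pcsk5. Their median level, as the mean of the 6 libraries, was 116 FPKM, against 13.2 FPKM over the tested genes. Of the 50 genes, 28 were at 100 FPKM or more, 17 between 10 and 100 FPKM and 5 under 10 FPKM. 15 members were among the 100 highest genes of the table and 4 among the 20 highest: Actb, which encodes cytoplasmic beta-actin, Coro1a, the coronin of blood cells, Cfl1, the filament-severing cofilin, and Actg1, which encodes gamma-actin. Among the listed genes Actb ranked 2nd in every WT and Tcf1 KO library and 1st in both DKO libraries. At the other end, Cttn, which encodes the Arp2/3 adaptor cortactin, was between 0.12 and 0.32 FPKM in all 6 libraries. It was the one member under the filter of 1 FPKM in at least 2 libraries, so 49 members were tested.

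The members' share of the FPKM of the listed genes was lowest in Tcf1 KO, and its composition was most different from WT in DKO. Their summed level was 6.35% and 6.42% of the listed FPKM in WT, 5.93% and 5.94% in Tcf1 KO and 6.46% and 6.52% in DKO. Actb made up 22.8% and 23.2% of the members' sum in WT, 22.3% and 22.3% in Tcf1 KO and 27.2% and 27.7% in DKO. Without Actb the members' share was 4.91% and 4.93% in WT, 4.61% and 4.62% in Tcf1 KO and 4.70% and 4.71% in DKO, so both mutants then lay below WT. Within the members' sum, capping, severing and monomer-binding proteins went from 18.1% in both WT libraries to 17.5% and 17.3% in Tcf1 KO and 14.1% and 13.8% in DKO. Assembly factors and adaptors went the other way, from 4.05% and 3.94% in WT to 4.72% and 4.78% in Tcf1 KO and 6.06% and 6.23% in DKO. Myosins and their light chains were at 13.3% and 13.1% in WT, 13.1% and 13.3% in Tcf1 KO and 11.2% and 11.2% in DKO. These shares also depend on the level of Actb, and single genes weigh in them. Capping, severing and monomer-binding genes summed to 2640 and 2674 FPKM in WT and 2050 and 2022 FPKM in DKO. Of these, Cotl1 alone made up 601 and 599 FPKM in WT and 278 and 293 FPKM in DKO.

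**Figure D1:**
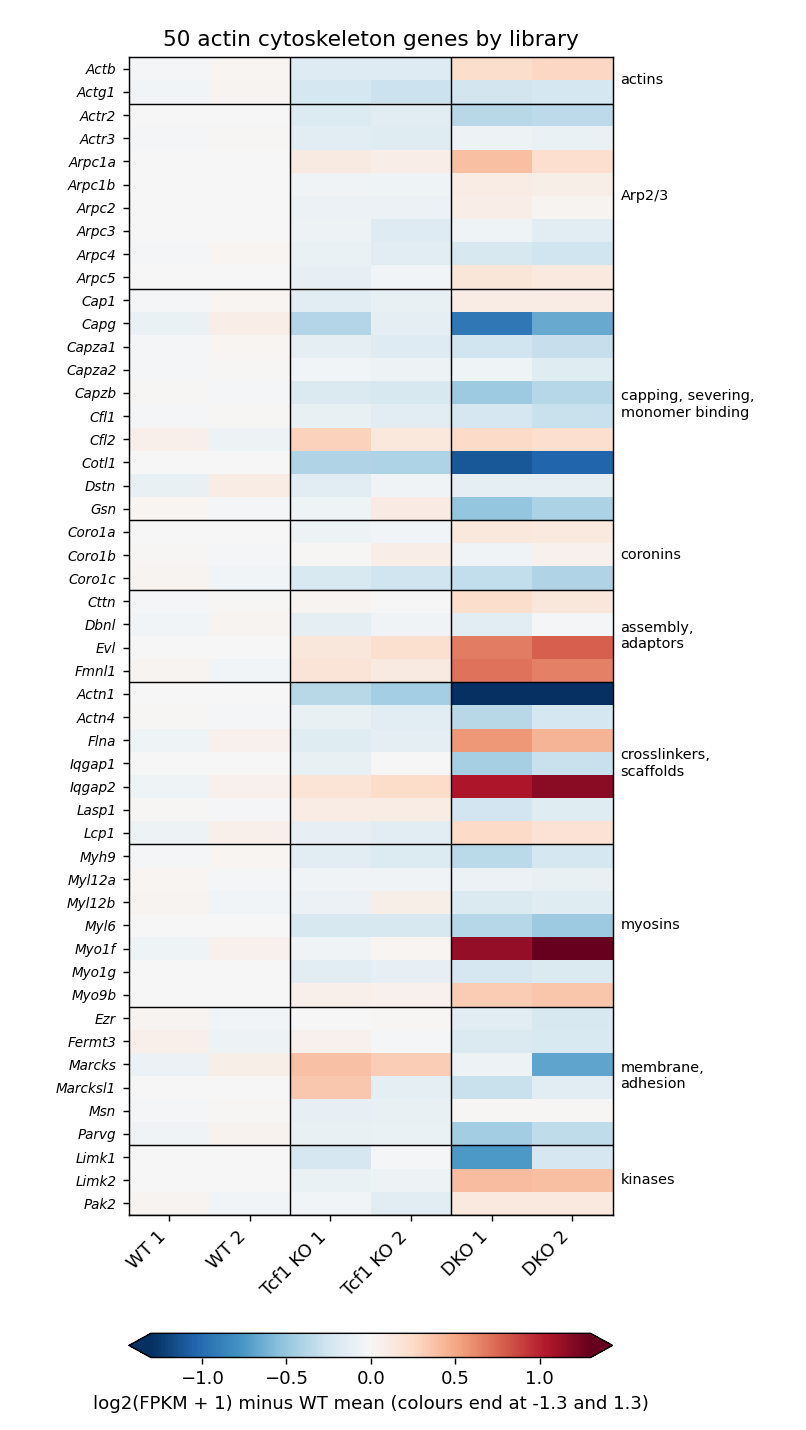
Level of each of the 50 genes (rows, by role) in each of the 6 libraries (columns), as log2(FPKM + 1) minus the mean of the 2 WT libraries; red is higher and blue lower than WT, and the colours end at -1.3 and 1.3. Libraries of a genotype look alike, the DKO columns hold most of the strong colour, and Actn1 is the darkest blue row.

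Libraries of a genotype lay close together for these genes. The median difference between the 2 libraries of a group was 0.04 in WT, 0.04 in Tcf1 KO and 0.07 in DKO on the log2(FPKM + 1) scale, against 0.07, 0.09 and 0.11 over all tested genes. The largest such differences among members were 0.19 for Dstn in WT, 0.48 for Marcksl1 in Tcf1 KO and 0.62 for Marcks in DKO, all 3 genes of low level.

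The first comparison asks what loss of both factors does to these genes. In DKO, 11 of the 49 tested members were higher than in WT and 20 were lower, at an adjusted p under 0.05 in limma over all 6761 tested genes. That is 22.4% higher and 40.8% lower, beside a background of 21.7% and 27.8% of all tested genes (49.5% in either direction). After median scaling 14 members were higher and 17 lower, and after quantile normalization 13 and 21. The split over all tested genes turned from 1465 higher and 1880 lower to 1767 and 1620 after median scaling and to 1817 and 1626 after quantile normalization. Among genes at 100 FPKM or more, 18 of 28 members were called (64.3%), beside 65.9% of all 402 tested genes of that level. Between 10 and 100 FPKM the counts were 13 of 17 members (76.5%) beside 52.8%, and under 10 FPKM 0 of 4 members beside 43.0%. The median log2 change of the members was -0.12, against -0.03 over all tested genes. Most changes were small: 8 of 49 members (16.3%) changed by at least 0.5 on the log2 scale, against 27.0% of all tested genes. The libraries of the 2 genotypes did not overlap for 17 members that were higher and 28 that were lower, beside a background of 36.0% and 41.4% (77.4% in either direction).

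**Figure D2:**
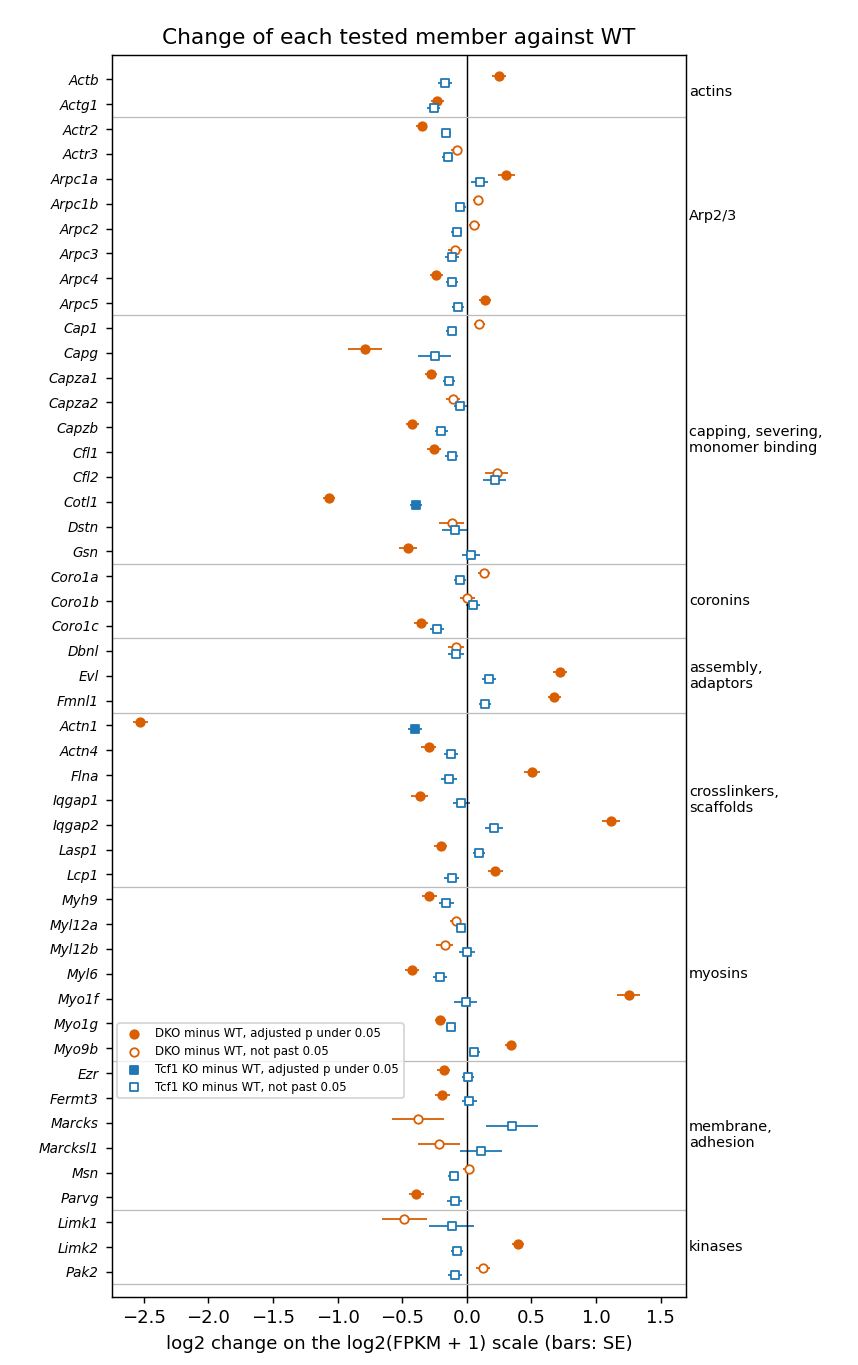
Log2 change of the 49 tested genes against WT (horizontal axis, on the log2(FPKM + 1) scale, bars are the SE) in DKO (circles) and Tcf1 KO (squares), by role; filled symbols passed an adjusted p of 0.05. DKO changes run from -2.53 to 1.25, while no Tcf1 KO change reaches 0.5 in either direction.

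Crosslinkers and scaffolds held the widest changes: all 7 passed the test, 3 higher and 4 lower, beside 49.5% of all tested genes. After median scaling 6 of 7 passed, with Lasp1 lost (adjusted p = 0.0522). Actn1 encodes alpha-actinin 1, which ties filaments to each other and to adhesion sites. It was at 159 and 157 (WT), 124 and 116 (Tcf1 KO) and 25.7 and 27.6 FPKM (DKO). All 3 genotypes were apart, with DKO far below the other two. The DKO mean was 5.94-fold lower than WT (log2 change -2.53 ± 0.06 SE, adjusted p = 1.71e-05). Its relative Actn4, alpha-actinin 4, fell less, by 0.30 on the log2 scale (adjusted p = 0.00778), from 85.2 and 83.5 FPKM in WT to 65.6 and 71.6 FPKM in DKO.

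The IQGAP scaffolds, which bind filaments and small GTPases, moved in opposite directions. Iqgap2 was at 16.4 and 17.9 (WT), 19.5 and 20.4 (Tcf1 KO) and 36.7 and 39.9 FPKM (DKO). Both DKO libraries lay above all others, and the mean was 2.23-fold that of WT (log2 change 1.11 ± 0.07, adjusted p = 0.000217). Iqgap1 was at 90.8 and 91.7 (WT), 85.5 and 91.9 (Tcf1 KO) and 67.2 and 74.4 FPKM (DKO). Here WT and Tcf1 KO overlapped and DKO was lower than both (DKO against WT -0.36 ± 0.07, adjusted p = 0.00657).

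Flna, which encodes the crosslinker filamin A, was at 139 and 149 (WT), 129 and 133 (Tcf1 KO) and 213 and 196 FPKM (DKO). DKO was the highest genotype and Tcf1 KO the lowest, and the rise over WT was 0.50 ± 0.06 (adjusted p = 0.00164). Lcp1, the gene of the leukocyte filament bundler L-plastin and the most abundant crosslinker, was at 291 and 317 (WT), 283 and 277 (Tcf1 KO) and 361 and 346 FPKM (DKO). Its rise over WT was 0.22 ± 0.06 (adjusted p = 0.0247). This call was lost without WT library 1 (adjusted p = 0.133), without DKO library 1 (adjusted p = 0.0814) and without the filter (adjusted p = 0.104). Lasp1, an adaptor found at adhesions, was the remaining fall of the group (-0.20, adjusted p = 0.0164).

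Of the 10 capping, severing and monomer-binding genes, 6 fell in DKO and none rose in limma (1 was higher at an unadjusted p under 0.05, Cfl2), beside 27.8% lower and 21.7% higher of all tested genes. After median scaling Cap1 passed as higher (adjusted p = 0.0317), and after quantile normalization Cfl2 did (adjusted p = 0.0414). Cotl1 encodes coactosin-like protein, a filament-binding relative of the cofilin family. It was at 601 and 599 (WT), 457 and 455 (Tcf1 KO) and 278 and 293 FPKM (DKO). The 3 genotypes formed a descending series with no overlap, and DKO was 2.10-fold below WT (log2 change -1.07 ± 0.05, adjusted p = 9.17e-05). Capg, which caps filament ends, was at 51.4 and 57.8 (WT), 41.6 and 50.2 (Tcf1 KO) and 28.2 and 34.4 FPKM (DKO). Every DKO library was below every other library, although libraries of 1 genotype differed more than for most members (-0.79 ± 0.13, adjusted p = 0.00468).

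Gsn, which encodes the severing and capping protein gelsolin, was at 64.5 and 62.6 (WT), 61.2 and 68.7 (Tcf1 KO) and 44.5 and 47.5 FPKM (DKO). WT and Tcf1 KO overlapped, and DKO was below both (DKO against WT -0.46 ± 0.07, adjusted p = 0.00357). Capzb is the beta subunit of the heterodimer that caps barbed ends. Its values were 223 and 219 (WT), 194 and 191 (Tcf1 KO) and 159 and 170 FPKM (DKO), a descending series (DKO against WT -0.42 ± 0.05, adjusted p = 0.0013). The partner subunit gene Capza1 fell by 0.28 (adjusted p = 0.0046), while Capza2 did not pass (-0.11, adjusted p = 0.138).

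Cfl1 was the most abundant gene of this role. It was at 1238 and 1256 (WT), 1164 and 1134 (Tcf1 KO) and 1073 and 1018 FPKM (DKO). The libraries of the 3 genotypes did not overlap, and DKO was 1.19-fold below WT (-0.25 ± 0.05, adjusted p = 0.00951). The call was lost without WT library 1 (adjusted p = 0.058), without WT library 2 (adjusted p = 0.0756) and in the fit of all listed genes, with no minimum level (adjusted p = 0.236). The minor paralogs Cfl2 (8.10 to 10.7 FPKM) and Dstn (4.39 to 5.34 FPKM) and the monomer-binding Cap1 (239 to 280 FPKM) did not pass.

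The cytoplasmic actins themselves parted in DKO. Actb was at 3321 and 3430 (WT), 2999 and 3005 (Tcf1 KO) and 3953 and 4054 FPKM (DKO). Tcf1 KO was lowest and DKO highest, with no overlap, and DKO was 1.19-fold WT (0.25 ± 0.05, adjusted p = 0.0135). Actg1 was at 882 and 921 (WT), 769 and 741 (Tcf1 KO) and 766 and 772 FPKM (DKO). Both mutants lay below WT and overlapped each other (DKO against WT -0.23 ± 0.05, adjusted p = 0.0119). The Actb call was lost without WT library 1 (adjusted p = 0.113), without WT library 2 (adjusted p = 0.0783) and without the filter (adjusted p = 1). That of Actg1 was lost without WT library 2 (adjusted p = 0.0949) and without the filter (adjusted p = 0.137). These genes encode near-identical proteins and have many pseudogenes, so the division of reads between them is uncertain; the same holds for Myl12a and Myl12b.

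**Figure D3:**
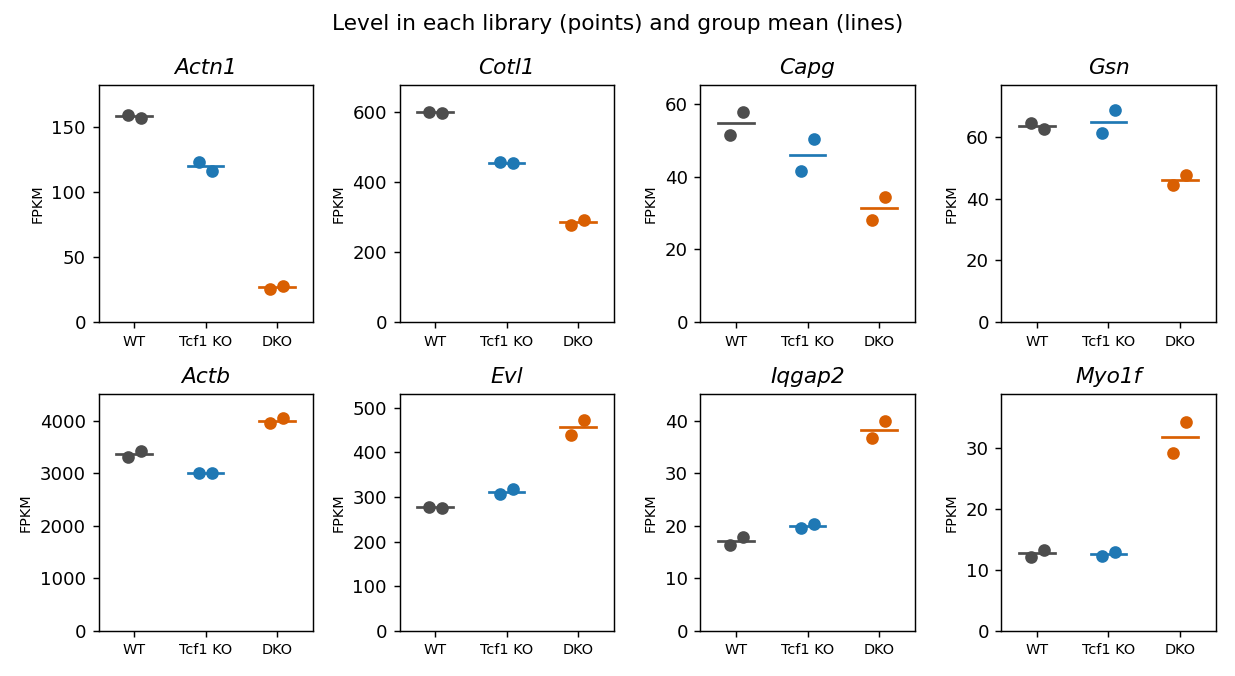
FPKM in each library (points) and the group mean (lines) of 8 genes in WT, Tcf1 KO and DKO, with each vertical axis starting at 0. Actn1 and Cotl1 step down from WT to Tcf1 KO to DKO, Capg and Gsn are lowest in DKO, Actb is lowest in Tcf1 KO, and Evl, Iqgap2 and Myo1f are highest in DKO.

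Among the assembly factors and adaptors, 2 of 3 tested genes rose, beside 21.7% higher of all tested genes. Evl, an Ena/VASP protein that extends filaments, was at 277 and 276 (WT), 306 and 319 (Tcf1 KO) and 440 and 473 FPKM (DKO). The genotypes formed an ascending series, and DKO was 1.65-fold WT (log2 change 0.72 ± 0.05, adjusted p = 0.000332). Fmnl1, a formin of blood cells, was at 229 and 217 (WT), 250 and 242 (Tcf1 KO) and 364 and 351 FPKM (DKO). It followed the same order, 1.60-fold WT in DKO (0.68 ± 0.05, adjusted p = 0.000323). Dbnl, an adaptor also called HIP-55, lay between 78.2 and 88.9 FPKM and did not pass.

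The 8 genes of the Arp2/3 complex split evenly, with 2 higher, 2 lower and 4 not past the threshold. The background over all tested genes was 21.7% higher and 27.8% lower. After median scaling 3 of the 8 were higher and 2 lower. Actr2, which encodes the Arp2 subunit, was the largest fall (-0.35 ± 0.04, adjusted p = 0.00136), from 154 and 153 FPKM in WT and 136 and 139 FPKM in Tcf1 KO to 119 and 122 FPKM in DKO. Its partner Actr3, the Arp3 subunit, was at 377 and 384 FPKM in WT and 364 and 357 FPKM in DKO and did not pass (adjusted p = 0.174). Arpc1a, one of a pair of alternative subunits, was at 33.7 and 33.3 (WT), 36.4 and 35.5 (Tcf1 KO) and 44.1 and 39.2 FPKM (DKO). It rose by 0.30 ± 0.07 (adjusted p = 0.0124), a call lost without WT library 1 (adjusted p = 0.0605), without WT library 2 (adjusted p = 0.0751) and without the filter (adjusted p = 0.0629). Its alternative Arpc1b, the most abundant subunit, was at 424 and 428 (WT), 412 and 411 (Tcf1 KO) and 456 and 449 FPKM (DKO). The DKO libraries were the highest, but the difference from WT did not pass (0.09, adjusted p = 0.131), except after median scaling (adjusted p = 0.0491). Arpc4 fell by 0.24 (adjusted p = 0.00939) and Arpc5 rose by 0.14 (adjusted p = 0.0469); the latter call was lost in 9 of 12 alternatives, among them each that left out a library (adjusted p up to 0.196).

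Of the 3 coronins, 1 fell, beside 27.8% lower of all tested genes. Coro1a was at 1388 and 1393 (WT), 1332 and 1352 (Tcf1 KO) and 1530 and 1522 FPKM (DKO). DKO was the highest genotype, though the difference from WT did not pass (0.13 ± 0.05, adjusted p = 0.0567). It passed with a pseudocount of 0.1 (adjusted p = 0.0487), after median scaling (adjusted p = 0.0233) and after quantile normalization (adjusted p = 0.000961). Coro1c, a broadly expressed relative, fell by 0.35 (adjusted p = 0.00388), from 41.6 and 39.7 FPKM in WT to 32.4 and 30.8 FPKM in DKO. Coro1b, between 123 and 135 FPKM, did not pass.

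Among the 7 myosin genes, 2 rose and 3 fell, beside 21.7% higher and 27.8% lower of all tested genes. Myo1f, a class I myosin of leukocytes, had the largest rise of any tested member. It was at 12.2 and 13.3 (WT), 12.3 and 12.9 (Tcf1 KO) and 29.2 and 34.3 FPKM (DKO). WT and Tcf1 KO overlapped, and DKO was 2.50-fold WT (log2 change 1.25 ± 0.09, adjusted p = 0.000323). Myo9b, a myosin that carries a GTPase-activating domain, was at 43.6 and 44.0 (WT), 45.9 and 45.4 (Tcf1 KO) and 55.1 and 56.4 FPKM (DKO). It ascended through the genotypes, with DKO 0.34 ± 0.04 above WT (adjusted p = 0.00177).

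Myl6, the essential light chain of nonmuscle myosin II, was the most abundant myosin gene. It was at 763 and 760 (WT), 659 and 658 (Tcf1 KO) and 588 and 546 FPKM (DKO). This was a descending series with no overlap (DKO against WT -0.42 ± 0.05, adjusted p = 0.00159). Myh9, the nonmuscle myosin IIA heavy chain, fell by 0.29 (adjusted p = 0.00849) from 458 and 471 FPKM in WT to 363 and 396 FPKM in DKO. Myo1g, another leukocyte class I myosin, fell by 0.20 (adjusted p = 0.0094). The regulatory light chain genes Myl12a (174 to 189 FPKM) and Myl12b (317 to 381 FPKM) did not pass.

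Of the 6 membrane and adhesion linkers, 3 fell and none rose in limma (0 were higher at an unadjusted p under 0.05). The background over all tested genes was 27.8% lower and 21.7% higher. After median scaling 1 of the 6 fell. Parvg encodes gamma-parvin, which links integrin complexes to filaments in blood cells. It was at 80.5 and 85.4 (WT), 77.4 and 77.8 (Tcf1 KO) and 60.5 and 65.6 FPKM (DKO). DKO was the lowest, with no overlap (-0.39 ± 0.06, adjusted p = 0.00318). Fermt3, the integrin activator kindlin-3, fell by 0.19 (adjusted p = 0.0389) and Ezr, which encodes ezrin, by 0.18 (adjusted p = 0.0249), calls lost in 8 and 7 of 12 alternatives, without WT library 1 among them (adjusted p = 0.188 and 0.142). Msn, which encodes moesin and is the most abundant linker, was at 406 and 416 (WT), 380 and 385 (Tcf1 KO) and 416 and 414 FPKM (DKO), where WT and DKO overlapped (0.02, adjusted p = 0.777).

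Among the kinases, the LIM kinases phosphorylate and inactivate cofilin. Limk2 was at 32.6 and 32.2 (WT), 30.4 and 30.8 (Tcf1 KO) and 43.1 and 42.7 FPKM (DKO). DKO was the highest genotype (0.40 ± 0.04, adjusted p = 0.0012). Limk1 was at 26.2 and 26.4 FPKM in WT but at 15.3 and 22.4 FPKM in DKO, and with that spread it did not pass (-0.48 ± 0.18, adjusted p = 0.0652). It passed without DKO library 2 (-0.75, adjusted p = 0.00496). Pak2, which acts downstream of Rac and Cdc42 and was the most abundant of the 3, was at 58.6 and 55.7 (WT), 55.5 and 51.8 (Tcf1 KO) and 62.5 and 62.4 FPKM (DKO). It did not pass against WT (0.13, adjusted p = 0.105).

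Of the 31 members called in DKO against WT, 17 were called in all 12 alternative analyses. They were Evl, Flna, Fmnl1, Iqgap2, Limk2, Myo1f and Myo9b among the rises and Actn1, Actr2, Capza1, Capzb, Coro1c, Cotl1, Gsn, Iqgap1, Myl6 and Parvg among the falls. Capg lost its call in 1 alternative, without the filter (adjusted p = 0.0561). Smaller falls also rested on WT libraries: without WT library 1 the calls of Actn4 (adjusted p = 0.0532), Lasp1 (adjusted p = 0.0952) and Myo1g (adjusted p = 0.0543) were lost. Without WT library 2 those of Arpc4 (adjusted p = 0.0714), Lasp1 (adjusted p = 0.0717), Myh9 (adjusted p = 0.0639) and Myo1g (adjusted p = 0.0673) were lost. In bulk RNA of a sorted population, a change in the share of cells of some state and a change in RNA per cell cannot be told apart. Other genes moved in the same libraries: the summed level of 16 cell cycle genes was 557 to 565 (WT), 291 to 383 (Tcf1 KO) and 123 to 125 FPKM (DKO). That of 4 CD4 lineage genes (Cd4, Cd40lg, Foxp3 and Gata3) was, in the same order, 14.7 to 15.1, 26.7 to 36.4 and 147 to 199 FPKM. Their part in the changes of the actin genes was not tested.

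**Figure D4:**
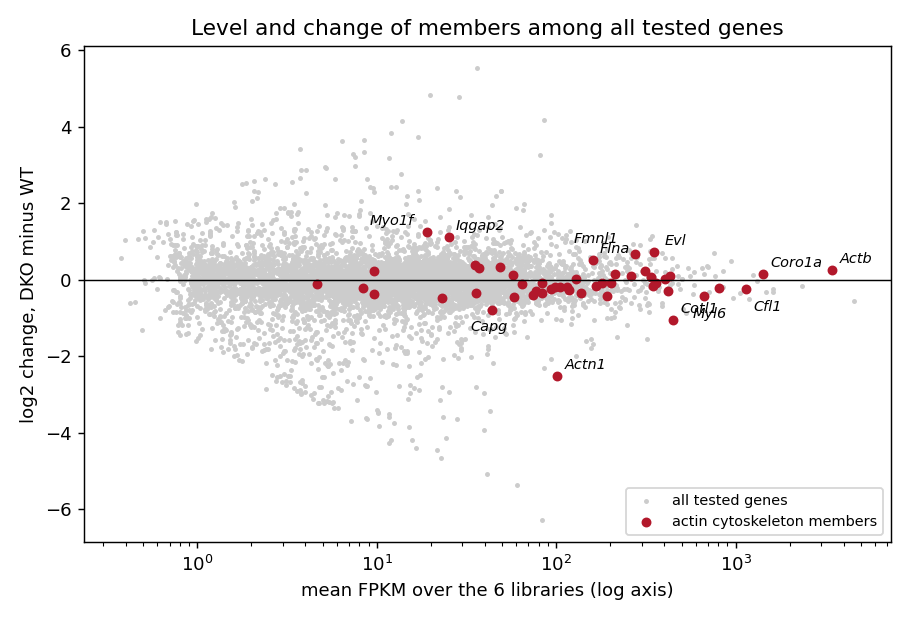
Mean FPKM over the 6 libraries (horizontal, log axis) against the log2 change of DKO minus WT (vertical) for all 6761 tested genes (grey) and the 49 tested actin cytoskeleton genes (red). The members lie mostly at high level and near 0, with Actn1 (-2.53) and Cotl1 (-1.07) below and Myo1f (1.25) and Iqgap2 (1.11) above.

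The second comparison asks what loss of Tcf1 alone does. In Tcf1 KO, 2 of 49 members passed, both lower than WT (4.08%), and none was higher in limma, beside a background of 0.754% lower, 1.33% higher and 2.09% in either direction. These were Actn1 (-0.40 ± 0.06, adjusted p = 0.0348) and Cotl1 (-0.39 ± 0.05, adjusted p = 0.0216). Their Tcf1 KO means, 120 ± 5.14 FPKM and 456 ± 1.44 FPKM (SD, n = 2), were 0.757 and 0.760 of the WT means. At an unadjusted p under 0.05, 13 members were lower and 3 higher (Evl, Fmnl1 and Iqgap2). Neither call was made in every alternative. After quantile normalization Cotl1 did not pass in limma (-0.28, adjusted p = 0.0527). Without WT library 1 or 2, Tcf1 KO library 1 or 2, or the filter, the adjusted p of Actn1 lay between 0.0639 and 0.245 and that of Cotl1 between 0.0647 and 0.198. Both genes were lower in both Tcf1 KO libraries than in both WT libraries.

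The other members changed little, and more of them downward than upward. The change was negative for 35 of 49 members and positive for 14, with a median of -0.089 against -0.006 over all tested genes. Both Tcf1 KO libraries lay below both WT libraries for 32 members (65.3%), beside a background of 30.0%, and above them for 8 (16.3%), beside a background of 25.8% (55.8% in either direction). This background is not matched for level: members were more abundant, and their libraries lay closer together. These counts were read without rescaling. At 100 FPKM or more the median change was -0.118 for members and -0.027 for all tested genes. Between 10 and 100 FPKM it was -0.078 and -0.009, and under 10 FPKM, with 4 members, 0.162 and 0.002. None of the 49 changed by 0.5 or more on the log2 scale, against 7.29% of all tested genes. Among the abundant genes, Actg1 (-0.26, adjusted p = 0.0666), Capzb (-0.20, adjusted p = 0.098), Myl6 (-0.21, adjusted p = 0.0999) and Actb (-0.17, adjusted p = 0.159) had lower values without passing. The members that rose most in DKO, Myo1f (-0.01, adjusted p = 0.975), Iqgap2 (0.21, adjusted p = 0.169) and Evl (0.17, adjusted p = 0.144), did not pass in Tcf1 KO.

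The order of the genotype means rests on the same values and is not separate evidence. Tcf1 KO was the lowest genotype for 16 of 49 members (32.7%), against 17.5% of all tested genes. They included both actins, 5 of the 8 Arp2/3 genes, Cap1, Coro1a, Flna, Lcp1, Msn, Myo1f and Pak2. After median scaling of the libraries the count was 18 (36.7% against 20.04%) and after quantile normalization 16 (32.7% against 20.6%). A stepwise decrease from WT through Tcf1 KO to DKO was found for 19 members (38.8%, against 34.0% of all), and a stepwise increase for 6, Arpc1a, Cfl2, Evl, Fmnl1, Iqgap2 and Myo9b (12.2%, against 28.8%). The order is a description, as neighbouring means often did not differ by the test.

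The third comparison sets DKO against Tcf1 KO, and so asks what loss of Lef1 adds when Tcf1 is already absent. It shares the DKO libraries with the first comparison and the Tcf1 KO libraries with the second. Of 49 members, 15 were higher in DKO (30.6%) and 13 lower (26.5%), beside a background of 15.9% and 22.6% of all tested genes (38.4% in either direction). Among genes at 100 FPKM or more, 17 of 28 members were called (60.7%), beside 57.0% of all tested genes of that level. Between 10 and 100 FPKM the counts were 10 of 17 members (58.8%) beside 40.0%, and under 10 FPKM 1 of 4 members beside 33.8%. The median change was -0.042, against -0.028 over all tested genes; it turned to 0.012 after median scaling, where 17 members were higher and 9 lower, while quantile normalization gave 13 higher and 15 lower. The split between rises and falls thus moves with the scaling. The libraries of the 2 genotypes did not overlap for 18 members higher in DKO (36.7%) and 23 lower (46.9%), beside a background of 31.2% and 37.9% (69.1% in either direction).

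The largest changes were again those of single genes. Actn1 fell by 2.13 ± 0.06 on the log2 scale (adjusted p = 4.28e-05), to 0.222 of its Tcf1 KO mean. Cotl1 fell by 0.67 ± 0.05 (adjusted p = 0.000538). Gsn, which did not pass in Tcf1 KO against WT (0.03, adjusted p = 0.867), fell by 0.49 ± 0.07 (adjusted p = 0.00441). These and Lasp1, which fell by 0.30 (adjusted p = 0.00628) from 107 and 107 FPKM in Tcf1 KO to 84.2 and 89.6 FPKM in DKO, were called in all 12 alternatives. Capg (-0.54 ± 0.13, adjusted p = 0.0239), Iqgap1 (-0.32, adjusted p = 0.014) and Parvg (-0.30, adjusted p = 0.0123) passed too. Without Tcf1 KO library 2 these calls were lost (adjusted p = 0.105, 0.0752 and 0.0618), as were those of Capg without DKO library 1 (adjusted p = 0.0786) and of Parvg without Tcf1 KO library 1 (adjusted p = 0.0594). Marcks, which encodes a membrane-bound actin crosslinking substrate of protein kinase C, was at 12.6 and 12.0 FPKM in Tcf1 KO and 8.96 and 5.47 FPKM in DKO. The DKO libraries differed from each other, and its fall (-0.72 ± 0.20, adjusted p = 0.036) lost the call in 7 of 12 alternatives, with an adjusted p up to 0.203. The smaller falls of Actr2, Capzb, Ezr, Fermt3 and Myl6, between 0.19 and 0.22 in size, passed as well. Each was lost without Tcf1 KO library 1 and without Tcf1 KO library 2. The calls of Actr2, Ezr, Fermt3 and Myl6 were also lost after median scaling (adjusted p = 0.0538, 0.122, 0.129 and 0.0917). Ezr and Myl6 each lost the call in 8 of 12 alternatives.

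The rises were led by Myo1f (1.26 ± 0.09, adjusted p = 0.000648), Iqgap2 (0.91 ± 0.07, adjusted p = 0.000724), Flna (0.64 ± 0.06, adjusted p = 0.00133) and Evl (0.55 ± 0.05, adjusted p = 0.00134). Fmnl1 (0.54, adjusted p = 0.00115), Limk2 (0.47, adjusted p = 0.00121) and Myo9b (0.28, adjusted p = 0.00526) completed the rises called in all 12 alternatives. Actb rose by 0.42 ± 0.05 (adjusted p = 0.00326), a call lost without the filter (adjusted p = 0.805). Actg1 did not pass (0.03, adjusted p = 0.697). Lcp1 rose by 0.34 ± 0.06 (adjusted p = 0.00788), lost without the filter (adjusted p = 0.0562). Smaller rises that also passed were those of Arpc1b, Arpc2, Arpc5, Cap1, Coro1a and Pak2, between 0.14 and 0.22. Each was lost when 1 of several single libraries was left out. The calls of Arpc1b and Arpc2 were lost in 10 of 12 alternatives and that of Coro1a in 8, with any library left out among them. After quantile normalization Arpc1b and Arpc2 did not pass (adjusted p = 0.134 and 0.13). Coro1a was also lost in the fit without the filter (adjusted p = 0.604).

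Ratios between relatives, formed within each library, do not change when a library is multiplied by 1 factor, as in median scaling. Quantile normalization can change them. With it, the log2 change of DKO against WT went from 0.25 to 0.51 for Actb and from -0.23 to -0.29 for Actg1. The ratio of Actn4 to Actn1 was 0.53 and 0.53 in WT, 0.64 and 0.66 in Tcf1 KO and 2.55 and 2.59 in DKO. Actn1 was thus the more abundant alpha-actinin in WT and Tcf1 KO, and Actn4 in DKO. Iqgap1 was 5.52 and 5.13 times Iqgap2 in WT, 4.38 and 4.51 times in Tcf1 KO and 1.83 and 1.87 times in DKO. Myo1g was 9.21 and 8.54 times Myo1f in WT, 8.31 and 8.08 times in Tcf1 KO and 3.31 and 2.88 times in DKO. In both pairs the more abundant member stayed ahead while the distance shrank in DKO.

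The ratio of Actb to Actg1 rose from 3.76 and 3.72 in WT to 3.90 and 4.06 in Tcf1 KO and 5.16 and 5.25 in DKO. Coro1a was 33.3 and 35.1 times Coro1c in WT, 37.7 and 40.0 times in Tcf1 KO and 47.2 and 49.4 times in DKO. The ratio of Limk1 to Limk2 was 0.80 and 0.82 in WT, 0.74 and 0.85 in Tcf1 KO and 0.35 and 0.53 in DKO. For Cfl1 to Dstn and for Marcksl1 to Marcks the libraries of all genotypes overlapped. These ratios are given as values without a test.

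**Figure D5:**
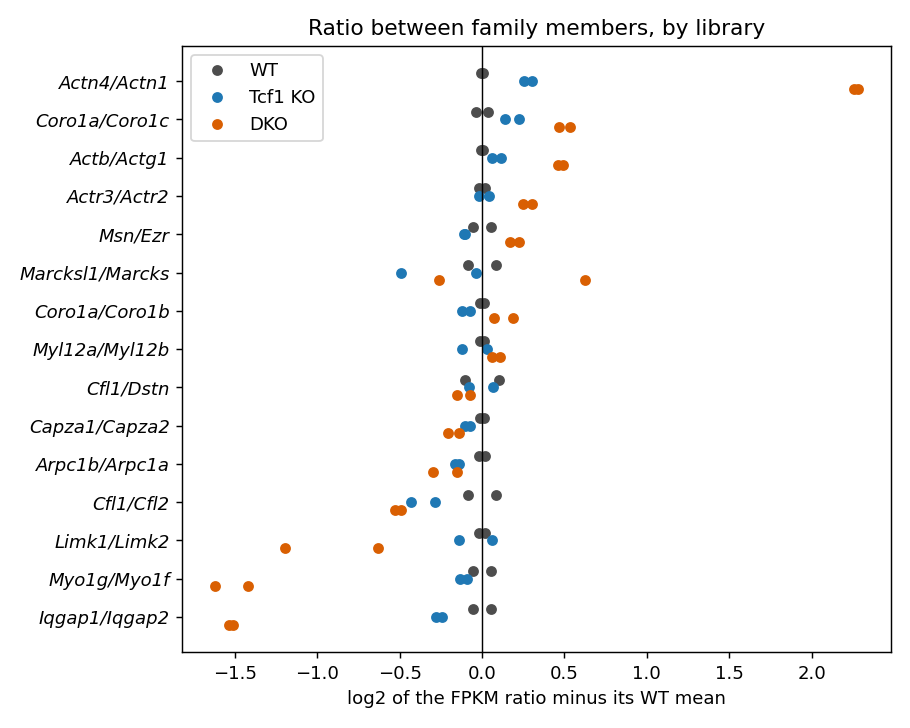
Log2 of the FPKM ratio between 2 relatives in each library, minus the mean of the WT libraries (horizontal axis), for 15 pairs (rows) in WT, Tcf1 KO and DKO (points). The Actn4 to Actn1 ratio of DKO lies 2.27 above WT, those of Iqgap1 to Iqgap2 and Myo1g to Myo1f lie 1.53 and 1.52 below, and the Tcf1 KO points stay near 0 in most rows.

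Other actin regulators and regulators of small GTPases, the switches that steer filament assembly, were read from a separate list of which 157 genes were in the table and 99 were tested. Relative to WT, the DKO level was higher for 41 (41.4%) and lower for 24 (24.2%), beside the background of 21.7% and 27.8%, with a median change of 0.17. Coro2a, a coronin, rose most, with 13.4 and 18.0 (WT), 52.9 and 44.6 (Tcf1 KO) and 67.0 and 99.7 FPKM (DKO) (2.32 ± 0.22, adjusted p = 0.000689). Actn2, known as the sarcomeric alpha-actinin, was at 7.86 and 7.61 (WT), 16.6 and 13.6 (Tcf1 KO) and 22.11 and 21.96 FPKM (DKO), an ascent opposite to that of Actn1 (1.40 ± 0.10, adjusted p = 0.000279). Arhgap25, a Rac GTPase-activating protein of leukocytes, rose by 1.17 (adjusted p = 9.16e-05).

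The largest falls were Arhgap11a, a GTPase-activating protein of dividing cells, with 17.2 and 17.7 (WT), 12.2 and 10.8 (Tcf1 KO) and 3.07 and 3.26 FPKM (DKO) (-2.15 ± 0.08, adjusted p = 7.46e-05), then the formin gene Diap3 (-1.85, adjusted p = 0.000339), Arhgap19 (-1.75, adjusted p = 0.000929) and the formin gene Fmnl3 (-1.61, adjusted p = 8.87e-05). Fmnl3 went from 26.7 and 27.6 FPKM in WT to 7.82 and 8.61 FPKM in DKO, opposite to its relative Fmnl1. Arhgap11a and Diap3 are known for roles in cell division, and the cell cycle sums given above moved the same way; their part in these falls was not tested.

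In Tcf1 KO against WT, 5 of the 99 passed (5.05%), beside the background of 2.09%. Coro2a (1.58, adjusted p = 0.0352), Actn2 (0.88, adjusted p = 0.0185) and Dock9, an exchange factor for Cdc42 (0.46, adjusted p = 0.0453), were higher, and Arhgap11a (-0.56, adjusted p = 0.0368) and Fmnl3 (-0.54, adjusted p = 0.0253) lower. Each lost its call without WT library 1 and without WT library 2, and the highest adjusted p over the alternatives lay between 0.167 (Actn2) and 0.316 (Dock9). In DKO against Tcf1 KO, 35 were higher (35.4%) and 23 lower (23.2%), beside the background of 15.9% and 22.6%. Arhgap25 (0.93, adjusted p = 0.000341) and the exchange factor gene Arhgef18 (0.90, adjusted p = 0.000479) rose, with Coro2a at the edge of the threshold (0.74, adjusted p = 0.0462, up to 0.245 over the alternatives). Arhgap11a (-1.58, adjusted p = 0.000286), Diap3 (-1.17, adjusted p = 0.0023), Arhgap5 (-1.08, adjusted p = 0.00178) and Arhgap19 (-1.08, adjusted p = 0.00746) led the falls.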

How the data were processed

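Sorted mature CD8 thymocytes of 3 genotypes, 2 libraries each, were grouped by their labelled genotype. The deposited values are FPKM, 1 column per library. The submitters' processing notes list FastQC, RSEM 1.2.21 and mm9, a mouse build. Aligner, annotation and filters: not given in the sources used here. A read that fits several genes is shared out by RSEM. The table used here has 16383 genes, and 13 symbols turned into dates were restored from the accession in the same row.

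Genes at 1 FPKM or more in at least 2 of 6 libraries numbered 6761 and entered the fit; 9622 did not. Values were taken as log2(FPKM + 1), a pseudocount of 1, and fitted with limma 3.58.1 (R 4.3.3), genotype only, with a variance trend, all 6 libraries in 1 fit and 3 residual degrees of freedom. P-values were adjusted by Benjamini-Hochberg over the 6761 genes, threshold 0.05. Log2 changes on this scale understate those of low genes. The procedure was tested on simulated data with the same spread for every gene and few changed genes. These data differ in both, so that test does not vouch for the calls given here.

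Alternatives were a pseudocount of 0.1, no filter, median scaling, quantile normalization, fits with only the 2 genotypes compared, replicate number as a block, and each library left out in turn. With 1 library left in a group, that library is assumed to vary like the other groups.

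Depth is approximate: it was found as the fragment number that best makes low values (genes with 1 transcript, 400 to 1000 bases long) multiples of 1 fragment, with fragments of 200 bases assumed. Between 67.0% and 71.6% of values lay within 0.25 of a whole number, where an even spread gives 50% and the choice of best fit overstates the share. No count test was run.

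The members and lists were chosen with earlier results of these data known. Members named with values in every library were, per comparison, the 8 largest rises and falls past the threshold and the most abundant gene of each role; in the list of other regulators, the 4 largest of each direction, of which 1 gene is not reported here. Further members are named to complete a count or beside a relative, chosen after their values were seen. Promoters are RefSeq entries in GRCm38.p6, a later build than the files; the files give no coordinates.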

Additional observations from a re-analysis of the deposited data

How the results depend on the processing

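In none of the 12 alternatives did a member called in a comparison change direction. In DKO against WT, leaving out 1 library gave 21 to 29 members (31 with all), 2066 to 3115 genes of the whole table (3345 with all) and 43 to 62 other regulators (65 with all). The members' median change there was -0.14 with a pseudocount of 0.1, -0.068 after median scaling, -0.10 after quantile normalization and -0.14 to -0.11 with a library left out. Tcf1 KO against WT depends on single libraries: 0 to 2 members, 12 to 177 genes and 0 to 6 other regulators were called with a library left out. The fit without the filter called 0 members (13 were lower and 3 higher at an unadjusted p under 0.05 with the filter), 69 genes (141 with it) and 1 other regulator, and quantile normalization called 1 member. The median was -0.064 after quantile normalization and -0.11 to -0.070 with a library left out. In DKO against Tcf1 KO, the fit without the filter called 13 members (28 with it), 1542 genes (2599 with it) and 34 other regulators (58 with it); leaving out a library gave 15 to 25, 1583 to 2275 and 33 to 52. There the median turned to 0.012 after median scaling and was -0.065 after quantile normalization and -0.070 to -0.042 with a library left out. The cause of these shifts was not tested.

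The replicate numbers were not shown to pair the libraries: deviations of same-numbered libraries correlated at 0.05 (WT and Tcf1 KO), 0.15 (WT and DKO) and 0.15 (Tcf1 KO and DKO). With the replicate number as a block, 32 members and 3571 genes were called in DKO against WT, 2 and 151 in Tcf1 KO against WT, and 27 and 2812 in DKO against Tcf1 KO. Limk1 passed with the block in DKO against WT (adjusted p = 0.0281), as did Cfl2 (adjusted p = 0.0392). With 2 libraries a group, small changes of abundant genes such as Actb and Cfl1 rest on either WT library. No count-based interval could be given, since the depth is only estimated.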

Other observations

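Immediate early genes, which serum response factor also drives, were read beside the actin genes. Of 10 listed, 9 were tested. In DKO against WT, 3 fell (33.3%) and none rose in limma (5 and 0 at an unadjusted p under 0.05), beside a background of 27.8% lower and 21.7% higher. Nr4a1, an orphan nuclear receptor induced by T cell receptor signals and chosen here after its values were seen, was at 29.6 and 29.7 (WT), 20.98 and 17.1 (Tcf1 KO) and 14.2 and 10.04 FPKM (DKO), a descending series. Egr1, chosen in the same way, was at 48.1 and 53.2 (WT), 42.8 and 35.3 (Tcf1 KO) and 34.0 and 30.9 FPKM (DKO). Of the serum response factor cofactors, Mkl1 was at 45.7 and 41.6 (WT), 42.1 and 42.5 (Tcf1 KO) and 57.6 and 53.7 FPKM (DKO), and Mkl2 lay between 4.28 and 5.21 FPKM.

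The sort took cells without surface CD69 or CD24. Cd69 RNA was nevertheless between 27.1 and 39.4 FPKM and Cd24a RNA between 2.61 and 5.76 FPKM over the 6 libraries.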
